A study of Mus musculus with 9 samples.

Results

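The mesenchymal and TALE homeobox genes described here are Prrx1, Prrx2, Msx1, Msx2, Shox2, Meis1, Meis2, Meis3 and Pbx3. They were taken by name, by matching the Ensembl identifiers of the count tables to mouse gene symbols, and all 9 were found among 47643 genes. RNA was measured in FACS-sorted pancreatic ductal adenocarcinoma (PDAC) cells of mice fed tamoxifen (TAM), and 6 libraries held GFP+Yap+ cells of KPF animals and 3 held Tm+Yap− cells of KPYYF animals. Both genotypes shared their tumor-driving alleles, among them Trp53 frt/+, the transgene Pdx-Flp and the reporter R26 FSF-CreER/Dual, and KPYYF mice were in addition Yap flox/flox. In both genotypes the Pdx1 promoter drove Flp in pancreatic cells, and Flp removed p53 sequence and started GFP and CreER. TAM then let CreER exchange GFP for tdTomato (Tm) and, in KPYYF mice, delete Yap. KPYYF cells came from nodules that had relapsed under TAM, so that genotype, Yap status, reporter color and relapse changed together and cannot be told apart. The ages of the mice were not given in the labels. Mouse numbers differ between libraries except for 4504h and 4504s, both KPF, which come under 1 number.

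Homeobox genes encode transcription factors that bind DNA through a homeodomain. Prrx1 and Prrx2 are paired-type factors of embryonic mesenchyme, and Prrx1 is also known from plastic states of carcinoma cells. Msx1 and Msx2 are targets of BMP signalling that hold progenitors undifferentiated, and Shox2 patterns limb, palate and sinus node. Meis and Pbx proteins belong to the TALE class, whose homeodomain carries extra residues in a loop, and they bind DNA together and with Hox and Pdx1 proteins. In the embryonic pancreas, Meis genes lie upstream of Pax6.

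Of the 9 genes, Prrx1 and Pbx3 stood higher in every Tm+Yap− library than in any GFP+Yap+ library. Prrx1 alone passed the test across all genes, with a fitted change of 12.1-fold. Prrx2, Meis1 and Meis2 were well expressed in both groups, with changes close to 0. Msx1 and Meis3 were low, and 1 library held 96.8% and 85.5% of their KPYYF reads. Shox2 was counted on 12 reads in all, and Msx2 had no read.

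Reads counted on genes ran from 8116539 to 9635514 per library. Levels are CPM, counts scaled by TMM to a common library size, the log2 fold change is KPYYF minus KPF, and 14105 genes that summed to 100 counts or more were tested by quasi-likelihood in edgeR, with Benjamini-Hochberg adjustment over all of them. Yap1, the gene deleted in KPYYF cells, had 41.7 to 150.5 CPM in KPF and 0.711, 2.84 and 7.10 CPM in KPYYF cells (log2 fold change -4.79, adjusted p = 0.0159). Reads of Xist, the RNA of the inactive X chromosome, numbered 3452 to 16108 in the KPYYF libraries and in 3 KPF libraries, and at most 159 in KPF libraries 4269, 4515 and 4601. Summed epithelial markers, 10 genes, were at 3271 to 11909 CPM in KPF and 582 to 1883 CPM in KPYYF libraries. All 10 were lower, and Krt18, Cdh1 and Muc1 passed the adjustment. Summed leukocyte markers reached 8259 CPM in KPF library 4601, and summed acinar enzyme genes reached 20230 CPM in KPF library 4504s and 5953 CPM in KPYYF library 4449.

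At an adjusted p under 0.05, 0.305% of all genes tested were higher in Tm+Yap− cells and 0.794% lower. Of the 9 genes, 7 passed the filter on low counts, of which 1, Prrx1, was called higher and 0 lower. At an unadjusted p under 0.05, 2 of the 7 were higher and 0 lower, beside 860 genes (6.10%) and 1416 genes of all 14105 tested, and DESeq2 also called 0 lower. By the cutoff in the study's methods, a more than 2-fold change with an unadjusted p under 0.05, 2 of the 7 were higher, Prrx1 and Pbx3, and 0 lower, where 4.20% of all genes tested were higher and 9.20% lower. No overlap between the groups, with KPYYF on the higher side, was seen in 2 of the 7 and in 3.92% of all genes tested. The reverse was seen in 0 of the 7 and in 5.18% of all genes. The median log2 fold change of the 7 was 0.23, beside -0.067 for all genes tested.

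**Figure D1:**
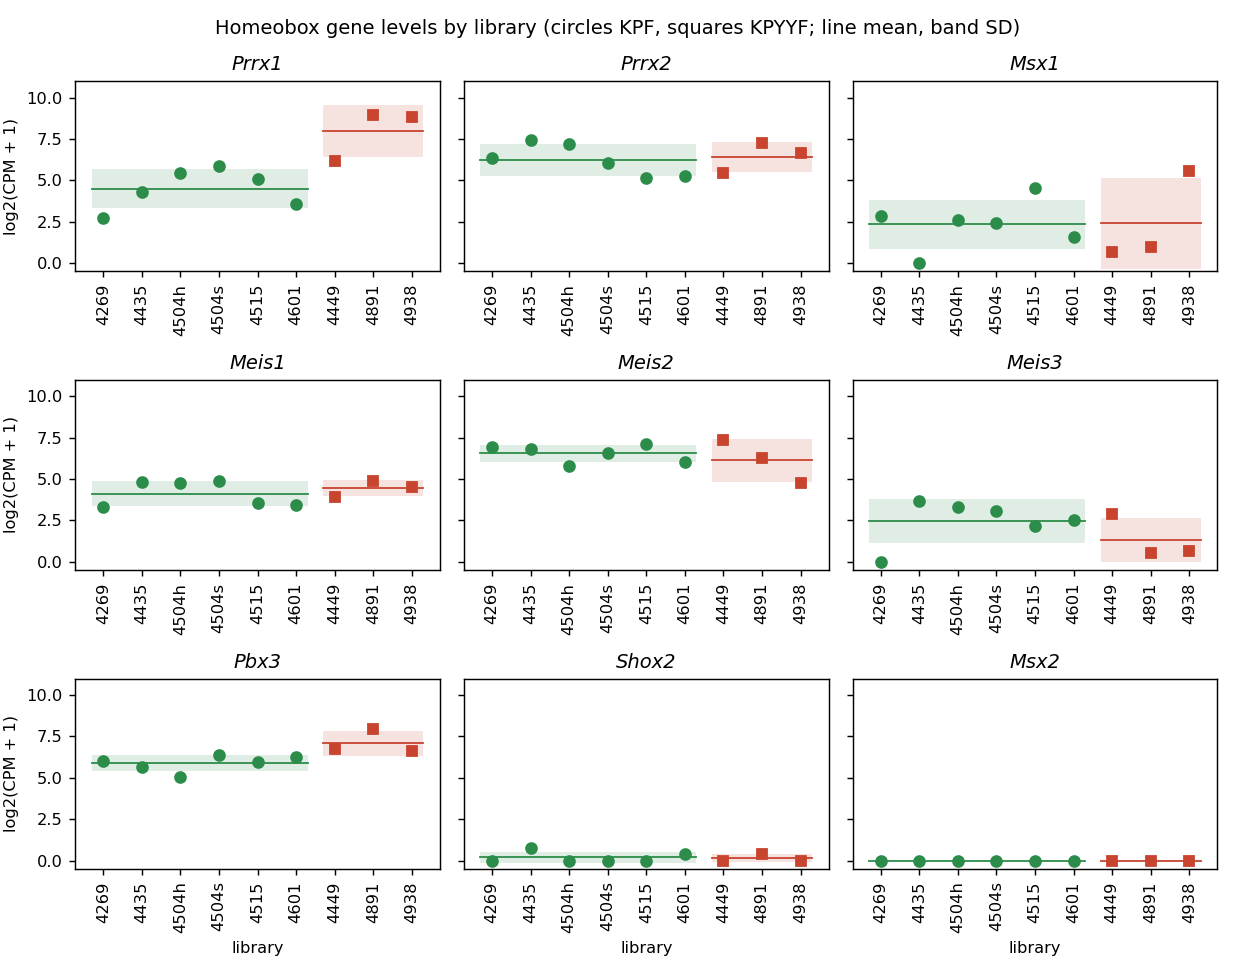
Levels of the 9 homeobox genes in each library, as log2(CPM + 1), with KPF libraries as circles, KPYYF libraries as squares, the group mean as a line and 1 SD as a band. Prrx1 and Pbx3 show every square above every circle, Msx1 has a single high square in 4938, and Msx2 lies at 0 throughout.

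Prrx1 (ENSMUSG00000026586) lies on chromosome 1 from 163245119 to 163313710 on the minus strand, on assembly GRCm38 in GENCODE release M21. In KPF libraries its lowest level was 5.72 CPM in 4269, its median 25.4 CPM and its highest 58.5 CPM in 4504s. In KPYYF libraries it was at 70.8 CPM in 4449, 503 CPM in 4891 and 446 CPM in 4938. The groups did not overlap, but 4449 was only 1.21 times the highest KPF library and 7.10 times below 4891. The means were 28.2 ± 20.3 CPM (SD, n = 6) and 340 ± 235 CPM (SD, n = 3), and the log2 fold change was 3.59 with a standard error of 0.72 (adjusted p = 0.0454 in edgeR). An exact permutation test (two-sided, on log2 CPM) gave p = 0.0119, the smallest that 84 relabelings of 6 and 3 libraries allow. The study drew Prrx1 from the same libraries as a progenitor factor, so neither test is independent evidence of its direction. The adjusted p was under 0.05 in 1 of 9 fits that each left a library out, the fit without 4449 (log2 fold change 4.07), and reached 0.136 without 4891 (3.20). In bulk RNA, fewer cells that express a gene and less RNA per cell cannot be told apart.

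Prrx2 (ENSMUSG00000039476), the close relative of Prrx1 with overlapping roles in limb and skull mesenchyme, lies on chromosome 2 from 30834972 to 30881251 on the plus strand. It had 33.9 CPM in KPF library 4515, a KPF median of 72.7 CPM and 172 CPM in 4435. The KPYYF libraries, at 42.6, 150 and 97.9 CPM in 4449, 4891 and 4938, all lay inside that span. The log2 fold change was 0.11 with a standard error of 0.55 (adjusted p = 0.953 in edgeR), with a 95% interval from -0.96 to 1.19 that leaves room for a change of either sign. The estimate was -0.34 without 4891 and 0.47 without 4449.

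Prrx1 and Prrx2 were set against each other within each library. The libraries read the 3′ end of transcripts, so counts do not grow with transcript length, and the share below is compared between libraries only. Prrx1 took 6.67% of the reads of both genes in KPF library 4269 (95% Wilson interval 5.21 to 8.51%), 9.59% in 4435, 22.7% in 4504h, 47.2% in 4504s, 49.0% in 4515 and 22.5% in 4601. It took 62.4% in KPYYF library 4449 (59.3 to 65.4%), 77.1% in 4891 and 82.0% in 4938. Prrx1 reads were thus fewer than Prrx2 reads in all 6 GFP+Yap+ libraries and more numerous in all 3 Tm+Yap− libraries. These intervals treat each read as independent and hold no spread between libraries. Reads with no molecular identifier can be copies of 1 molecule, so that the intervals can be too narrow. On the log2 scale, Prrx1 minus Prrx2 was between -3.75 and -0.057 in KPF and between 0.73 and 2.18 in KPYYF libraries. The difference moved by 3.34 (standard error 0.76), with p = 0.0357 in a two-sided exact permutation test and 0.179 after adjustment over the 5 pairs tested. Even the smallest p that 84 relabelings allow, 0.0119, could not pass that adjustment for a single pair, so the adjusted value decides nothing. Since the study drew Prrx1 from these libraries, the test of this pair is not independent evidence of its direction. The summed level of both genes overlapped, at 47.8 to 191 CPM in KPF and 113, 652 and 544 CPM in KPYYF libraries.

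**Figure D2:**
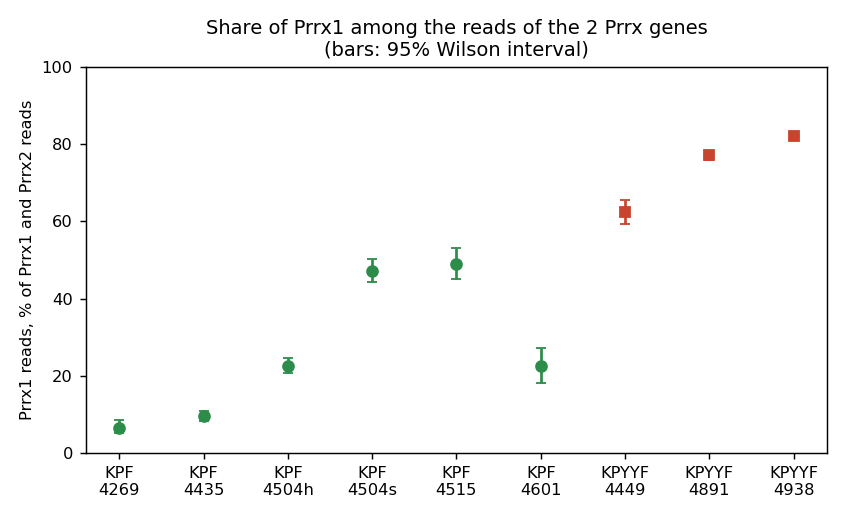
Prrx1 reads as a percent of the reads of Prrx1 and Prrx2 in each library, with 95% Wilson intervals that treat each read as independent. All KPF libraries lie at or below 49.0% and all KPYYF libraries at or above 62.4%.

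The windows at the annotated start sites of these paralogs are shown because the genes parted between the groups. They come from RefSeq on GRCm38.p6, run from 250 bases before to 50 bases after the start and are written on the gene's own strand. Capitals mark matches to the motifs searched on both strands. The motifs were TGACAG (bound by MEIS proteins), TGATTNAT (PBX), TAATTA (paired-type homeodomains), CATTCC (TEAD, the DNA-binding partner of Yap) and TGANTCA (AP-1), and the matches printed do not overlap. The Prrx1 window is chr1:163313601-163313900 on the minus strand and the Prrx2 window is chr2:30845117-30845416 on the plus strand, inside the Prrx2 gene model.
Prrx1: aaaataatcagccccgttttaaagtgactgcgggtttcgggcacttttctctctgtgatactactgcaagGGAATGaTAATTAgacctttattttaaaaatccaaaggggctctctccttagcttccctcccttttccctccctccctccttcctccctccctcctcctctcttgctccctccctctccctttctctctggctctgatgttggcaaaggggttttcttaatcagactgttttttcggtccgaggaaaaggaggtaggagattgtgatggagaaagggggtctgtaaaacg
Prrx2: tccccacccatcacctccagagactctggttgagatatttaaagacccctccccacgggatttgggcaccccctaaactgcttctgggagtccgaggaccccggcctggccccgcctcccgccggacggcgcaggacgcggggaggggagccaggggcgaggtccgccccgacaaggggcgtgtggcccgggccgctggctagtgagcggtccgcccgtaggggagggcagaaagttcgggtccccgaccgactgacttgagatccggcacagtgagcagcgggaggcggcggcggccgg
The Prrx1 window held GGAATG, the reverse complement of CATTCC, 180 bases before the start and TAATTA 173 bases before it, and the Prrx2 window held no match. Of 32851 windows of 300 bases, 14.7% held CATTCC, 5.29% TAATTA, 19.2% TGACAG, 7.81% TGANTCA and 3.22% TGATTNAT. Among the 8 homeobox genes with a window, CATTCC occurred in Prrx1 alone, TAATTA in Prrx1 and Msx2, and the other motifs in none. The Prrx1 window was 47.7% GC with 6 CpG and the Prrx2 window 70.3% GC with 28 CpG, where all windows had medians of 52.7% and 7. Msx1, Msx2, Meis1, Meis2, Meis3 and Shox2 had windows of 51 to 70% GC with 11 to 29 CpG, so that the Prrx1 window was the lowest of the 8 in both measures. Pbx3 was not matched. These matches describe letters only.

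Genes of neighbouring stromal cells were set beside Prrx1, which fibroblasts also express. Summed over 12 fibroblast markers, the level was 422 to 5676 CPM in KPF and 1421, 3428 and 1201 CPM in KPYYF libraries 4449, 4891 and 4938, and the groups overlapped. Of the 12, 6 were higher and 6 lower, none with an adjusted p under 0.05 in edgeR and 3, all higher, with an unadjusted p under 0.05. Within the 6 KPF libraries, Prrx1 had the same order as this sum, from 4269 to 4504s, and equalled 0.905 to 1.64% of it. In KPYYF libraries it equalled 4.98% in 4449, 14.7% in 4891 and 37.1% in 4938. Prrx2 equalled 1.15 to 19.0% of the sum in KPF and 3.00, 4.36 and 8.16% in KPYYF libraries. Pdgfra, a receptor of fibroblasts and of embryonic mesenchyme, was at 4.37 to 41.9 CPM in KPF and 24.3, 284 and 115 CPM in KPYYF cells (log2 fold change 2.90, adjusted p = 0.105 in edgeR). The part of fibroblast RNA in the Prrx1 result was not tested.

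**Figure D3:**
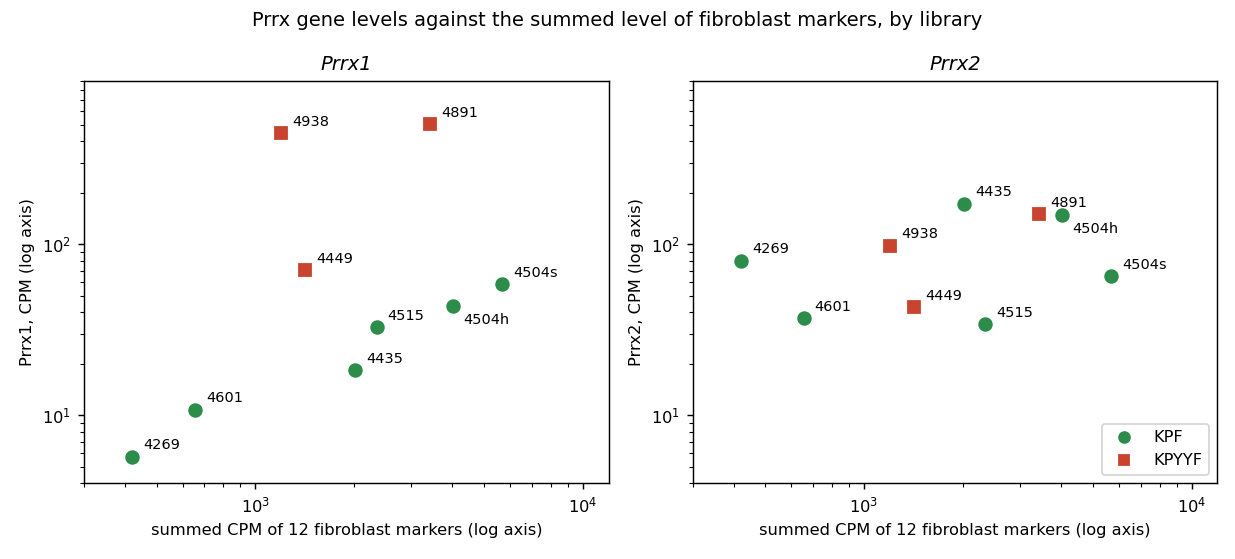
Levels of Prrx1 (left) and Prrx2 (right) in CPM against the summed CPM of 12 fibroblast markers, on log axes, with 1 point per library. The 6 KPF circles of Prrx1 rise with the sum from 5.72 to 58.5 CPM, and the 3 KPYYF squares lie above all of them at 70.8 to 503 CPM, whereas circles and squares mix for Prrx2.

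Summed markers of other stromal cells overlapped between the groups or, for Schwann cells, were lower in every KPYYF library. Pericyte and smooth muscle markers summed to 31.4 to 294 CPM in KPF and 50.8 to 221 CPM in KPYYF libraries. Of those 9 genes, 8 were tested, and 2 rose while 6 fell, around a middle value of -1.36 on the log2 scale. Cspg4 alone was called, and it was higher (log2 fold change 4.08, adjusted p = 0.0351 in edgeR). Its level was 0.581 to 5.81 CPM in KPF and 25.2, 6.43 and 103 CPM in KPYYF libraries. Endothelial markers summed to 16.7 to 82.0 and 18.8 to 24.7 CPM, and Schwann cell markers to 18.1 to 96.7 and 0.545 to 7.34 CPM, with Sox10, Gfap, Cdh19 and Foxd3 at 0 counts throughout and S100b called lower (log2 fold change -3.84, adjusted p = 0.0357 in edgeR). Islet hormone and granule genes summed to 2.45 to 111 and 4.70 to 20.4 CPM.

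Msx1 (ENSMUSG00000048450), on chromosome 5 from 37820485 to 37824583 on the minus strand, was low in most libraries. KPF library 4435 had 0 reads, which allows 0.307 CPM at 3 counts, the KPF median was 4.81 CPM and 4515 had 21.7 CPM. KPYYF libraries 4449, 4891 and 4938 had 0.592, 0.981 and 46.3 CPM. Library 4938 thus held the highest level of all 9 and 96.8% of the KPYYF reads, and the other KPYYF libraries lay below 5 of the 6 KPF libraries. The log2 fold change was 1.28 with a standard error of 1.43 (adjusted p = 0.729 in edgeR), and -3.04 without 4938 (adjusted p = 0.497, 0.497 to 0.808 over the alternatives that gave a value). Msx2 (ENSMUSG00000021469), on chromosome 13 from 53466884 to 53473074, had 0 counts in every library, which allows up to 0.291 to 0.436 CPM. Shox2 (ENSMUSG00000027833), on chromosome 3 from 66971727 to 66981771, had 7 reads in KPF library 4435, 2 in KPF library 4601 and 3 in KPYYF library 4891. The opposite strand of Shox2 carries the gene Rsrc1 with 4063 reads, and the strand setting of the counting was not given. Neither Msx2 nor Shox2 passed the filter, so a difference was not detectable at this depth.

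BMP signalling is the classic input to Msx genes, and 19 of 22 genes of that pathway were tested. Of these, 8 were higher and 11 lower, and the median log2 fold change was -0.17, with a turned sign without KPF library 4504h (0.056) or 4435 (0.0086). None passed the adjustment in edgeR, 3 were higher and 2 lower at an unadjusted p under 0.05, and DESeq2 called 2. Bmpr1b, a type I BMP receptor, showed the largest rise (log2 fold change 4.36, adjusted p = 0.237), with 95, 21 and 1 reads in KPYYF and at most 8 in KPF libraries. Smad6, an inhibitor of BMP signalling, showed the largest fall (-4.15, adjusted p = 0.253 in edgeR), with 0, 0 and 6 reads in KPYYF and 12 to 85 in KPF libraries. KPYYF library 4938, the library with the highest Msx1, held the fewest KPYYF reads of Bmpr1b, and its Bmp4 was the lowest (0.109 CPM). Bmpr1a (27.7 CPM) and Bmp2 (78.6 CPM) were instead at their highest KPYYF level there. A link between these genes and Msx1 was not tested.

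Pbx3 (ENSMUSG00000038718), a TALE partner of Meis and Hox proteins, lies on chromosome 2 from 34171457 to 34373142 on the minus strand. In KPF libraries it was lowest at 32.6 CPM in 4504h, with a median of 62.3 CPM, and highest at 81.6 CPM in 4504s. In KPYYF libraries it was at 105 CPM in 4449, 243 CPM in 4891 and 96.1 CPM in 4938. The groups did not overlap, the lowest KPYYF library being 1.18 times the highest KPF library. The log2 fold change was 1.28 (standard error 0.36, fold 2.43), with an unadjusted p of 0.00354 and an adjusted p of 0.110 in edgeR, and an exact two-sided permutation test gave p = 0.0119, the smallest possible. The permutation p follows largely from the lack of overlap. The genes were chosen with earlier results of these data known, so neither test is independent evidence. In DESeq2 the adjusted p was 0.0271, and the alternatives ran from 0.0271 to 0.390. Without KPYYF library 4891 the log2 fold change was 0.72. Unlike Prrx1, Pbx3 did not follow the fibroblast sum within KPF libraries, with 64.3 CPM in 4269, where that sum was lowest, and 32.6 CPM in 4504h.

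Meis1 (ENSMUSG00000020160), on chromosome 11 from 18879817 to 19018985 on the minus strand, is a cofactor of Hox proteins known from stem cells of several tissues. It had 8.73 CPM in KPF library 4269, a KPF median of 18.2 CPM and 28.6 CPM in 4504s. KPYYF libraries had 14.1, 28.9 and 22.2 CPM in 4449, 4891 and 4938, and the groups overlapped. The log2 fold change was 0.23 with a standard error of 0.53 (adjusted p = 0.891 in edgeR), with a 95% interval from -0.81 to 1.26, and it was -0.031 without 4891.

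Meis2 (ENSMUSG00000027210), on chromosome 2 from 115863064 to 116065839 on the minus strand, gave the most reads of the Meis genes in all 9 libraries. It had 55.0 CPM in KPF library 4504h, a median of 103 CPM and 139 CPM in 4515. The KPYYF libraries spread wider than the KPF libraries, from 161 CPM in 4449 through 76.1 CPM in 4891 to 26.6 CPM in 4938, so that they held both the highest and the lowest level of the series. The highest was 6.07 times the lowest in KPYYF and 2.52 times in KPF libraries, a difference in spread that was not tested. The log2 fold change was -0.15 with a standard error of 0.47 (adjusted p = 0.923 in edgeR), 0.28 without 4938 and -0.93 without 4449.

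Meis3 (ENSMUSG00000041420), on chromosome 7 from 16175090 to 16186504 on the plus strand, was the lowest of the Meis genes. It had 0 reads in KPF library 4269, which allows 0.291 CPM, a KPF median of 6.02 CPM and 11.7 CPM in 4435. KPYYF libraries had 6.28 CPM in 4449, 0.436 CPM in 4891 and 0.546 CPM in 4938. Library 4449 lay amid the KPF libraries, and the other KPYYF libraries lay below 5 of the 6. The log2 fold change was -1.32 with a standard error of 1.43 (adjusted p = 0.718 in edgeR), and -3.59 without 4449 (adjusted p = 0.337, 0.337 to 0.868 over the alternatives). In KPYYF library 4449 the summed epithelial markers were 1883 CPM and the summed acinar genes 5953 CPM, beside 582 and 692 CPM and 89.3 and 76.1 CPM in 4891 and 4938. Meis2 and Meis3 were thus highest in the KPYYF library with the most epithelial and acinar reads, and Prrx1 was lowest there, as values of 3 libraries and with no test. The KPF libraries did not share this order for Meis3, with 3.53 CPM in 4515, where epithelial markers were highest, and 8.97 CPM in 4504h, where they were lowest. Meis2 was highest in 4515 and lowest in 4504h, and Prrx1 was highest in 4504s, which had the most acinar reads.

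Within libraries, Meis2 took 61.4 to 93.2% of the reads of the 3 Meis genes in KPF libraries and 88.8% in 4449, 72.2% in 4891 and 53.9% in 4938 (95% Wilson interval 49.3 to 58.4%). Meis1 minus Meis2 moved by 0.77 on the log2 scale (standard error 1.05), Meis1 minus Meis3 by 1.73 (standard error 1.51), Meis2 minus Meis3 by 0.96 (standard error 1.18) and Meis1 minus Pbx3 by -0.86 (standard error 0.53). Adjusted p values of exact permutation tests over the 5 pairs were 0.536 to 0.583 for these 4 pairs, and the groups overlapped in each. The errors are as large as or close to the differences for the first 3, so that neither equal nor unequal change of the Meis genes was shown.

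**Figure D4:**
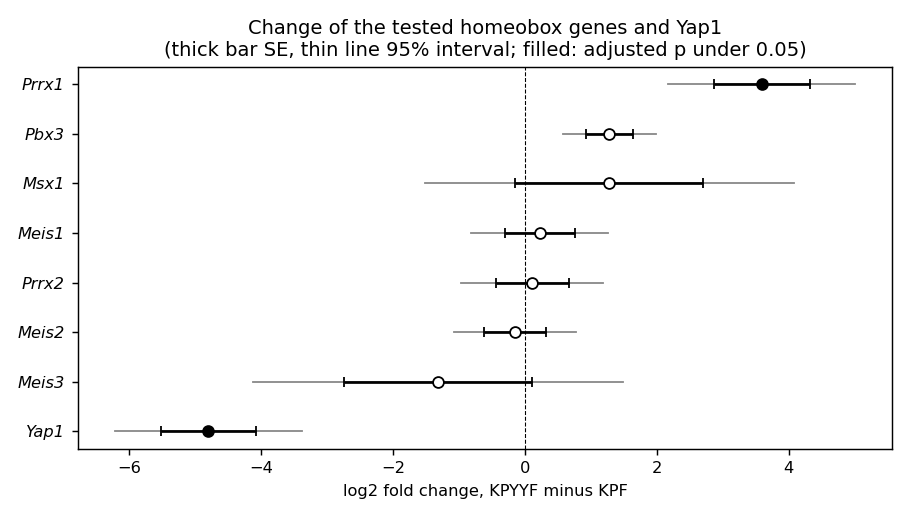
Log2 fold changes of the 7 tested homeobox genes and of Yap1, KPYYF minus KPF, with the standard error as a thick bar and the 95% interval as a thin line. Filled points, Prrx1 and Yap1, have an adjusted p under 0.05 in edgeR, and the interval of Pbx3 also stays above 0.

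**Figure D5:**
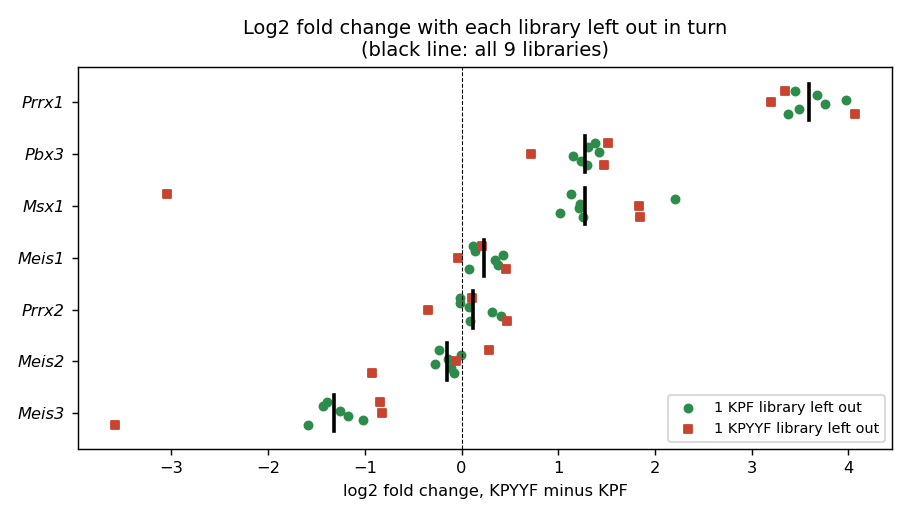
Log2 fold changes of the 7 tested homeobox genes when each library was left out in turn, with circles for a KPF and squares for a KPYYF library left out and a black line for all 9 libraries. Prrx1 stays between 3.20 and 4.07 and Pbx3 between 0.72 and 1.51, whereas Msx1 falls to -3.04 without 4938.

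The other TALE genes were 14 of the Pknox, Tgif, Irx and related families, of which 9 were tested. Of these, 6 were higher and 3 lower, and the median log2 fold change was 0.24, or 0.087 without KPYYF library 4891 and -0.15 without 4938. None passed the adjustment in edgeR or DESeq2, and 1 was higher and 1 lower at an unadjusted p under 0.05. The higher one, Irx1, reached the filter on summed counts through its KPYYF reads. Irx1, an Iroquois patterning gene, showed the largest fitted rise (adjusted p = 0.173 in edgeR), with 0, 14 and 83 reads in KPYYF libraries 4449, 4891 and 4938 and 3 reads in all KPF libraries together. The ratio of these pooled levels was 66.0, with an exact 95% counting interval from 21.9 to 326 that holds no spread between libraries. Irx3 showed the largest fall (-1.36, adjusted p = 0.310), with 24.4 to 183 CPM in KPF and at most 56.4 CPM in KPYYF libraries.

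Other mesenchymal homeobox genes, 23 of the Alx, Dlx, Barx, Meox, Pitx, Nkx3 and related families, were mostly silent, with 5 tested and 8 without a count. Of the 5, 1 was higher and 4 lower, and none passed the adjustment in edgeR. Dlx4 and Barx1 reached the filter on summed counts through KPF reads alone, so the directions and the median are partly set by the filter. The median log2 fold change was -2.01, which is the value of En1. With a library left out this median ran from -7.09 (without 4449) to -1.26 (without 4504h), and it was -4.72 without 4504s, -4.68 without 4269 and -4.30 without 4891. DESeq2 called 2, and 0 were higher and 2 lower at an unadjusted p under 0.05. Barx1, a factor of stomach mesenchyme, showed the largest fitted fall (adjusted p = 0.116 in edgeR), with 430 reads over the KPF libraries and 0 in the KPYYF libraries. Its KPF reads were 65, 48, 133, 181, 0 and 3 in 4269, 4435, 4504h, 4504s, 4515 and 4601. KPF library 4515 was thus as empty as the KPYYF libraries, and most reads came from 4504h and 4504s of 1 mouse number. Pooled over libraries, Barx1 was at least 23.4-fold lower against 3 counts in each KPYYF library. Dlx1 showed the largest rise (log2 fold change 3.18, adjusted p = 0.437), with 74 of its 109 reads in KPYYF library 4891.

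Hox proteins are DNA-binding partners of Meis and Pbx. Of 39 Hox genes, 9 were tested, of which 1 was higher and 8 lower, and the median log2 fold change was -3.78, or -3.13 with the 4 genes that had at most 3 counts in each KPYYF library at their bound. Those 4, Hoxa4, Hoxb3, Hoxb4 and Hoxb5, reached the filter on summed counts through their KPF reads. The directions, the median and the number with a low p among the 9 are therefore partly set by the filter. The median was -7.37 without KPYYF library 4891 and -5.69 without 4938. None passed the adjustment in edgeR, and 5 were lower at an unadjusted p under 0.05, as were 1416 of all 14105 genes tested. DESeq2 called 2 of the 9, beside 269 genes higher and 928 lower over all genes. Hoxa4, named for the largest fitted fall, had 161 reads in KPF and 0 in KPYYF libraries. Its KPF reads were 0, 15, 63, 83, 0 and 0 in 4269, 4435, 4504h, 4504s, 4515 and 4601. Some KPF libraries were thus as empty as the KPYYF libraries, and most reads came from 4504h and 4504s of 1 mouse number. Pooled over libraries, Hoxa4 was at least 8.76-fold lower, a bound that does not settle its rank among the Hox genes. Hoxb6 showed the largest rise (log2 fold change 1.92, adjusted p = 0.646 in edgeR). All Hox genes together summed to 4.66 to 95.3 CPM in KPF and 5.92 to 7.74 CPM in KPYYF libraries. Among 14 homeobox genes of pancreatic lineages, 7 were tested, 2 higher and 5 lower, with a median of -1.50, or -2.85 without KPYYF library 4449 and -0.96 without 4891 or 4938. None passed the adjustment in edgeR, 0 were higher and 2 lower at an unadjusted p under 0.05, and DESeq2 called 1. Prox1, a factor of the early pancreatic epithelium, showed the largest fall (-3.12, adjusted p = 0.326 in edgeR), and Isl1, a factor of islet cells, the largest rise (0.66, adjusted p = 0.885).

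The genes whose levels followed each homeobox gene most closely were searched among 8891 named genes with a mean of at least 10 CPM, by Pearson correlation of log2 CPM over 9 libraries. The correlations describe libraries of 2 groups and carry no test. Prrx1 was followed by Cenpw, a centromere protein (r = 0.98), Aig1 (0.97) and Pdgfra (0.96), and within the 6 KPF libraries r was 0.95, 0.89 and 0.94. Aig1 itself was higher in Tm+Yap− cells (log2 fold change 1.98, adjusted p = 0.0246 in edgeR). Pbx3 was followed by Ube2a, Nasp and Cdo1, each with r = 0.92. Prrx2 was followed by Rnaseh2a (r = 0.95), Cbx3 (0.93) and Pcnp (0.93), and Meis1 by Psmb3 (0.94), Ptgis (0.92) and Col5a1 (0.90). Meis2 was followed by Fbxo9, Rhobtb1 and Gata6, a factor of pancreatic identity (r = 0.93, 0.93 and 0.92). Meis3 was followed by Wfdc2, Ppp2r3d and Morc4, with r between 0.94 and 0.95, and Msx1 by Gnb1, Qrich1 and Snhg12, with r between 0.87 and 0.89. Among the 7 homeobox genes themselves, the closest pair was Prrx2 with Meis1 (r = 0.74), and Prrx1 with Prrx2 had r = 0.30.

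Sex and the shared mouse number were checked for the genes that stood apart. The 6 libraries with at least 1000 Xist reads, 3 of each group, were picked with the values in view. In them the log2 fold change was 3.11 for Prrx1 (adjusted p = 0.185 in edgeR) and 1.45 for Pbx3 (adjusted p = 0.263 in edgeR). The groups could not overlap in this subset for either gene, since they did not overlap over all 9 libraries. The 3 KPF libraries with few Xist reads have no KPYYF counterpart. With 4504h and 4504s summed, Prrx1 had 3.85 (adjusted p = 0.0562) and Pbx3 1.27 (adjusted p = 0.107).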

How the data were processed

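RNA of FACS-sorted cells was measured in 9 libraries. The authors deposited raw read counts per Ensembl gene, not normalized. The submitters' processing notes name STAR, HTSeq and mm10, without versions, and the labels name QuantSeq 3′ Fwd libraries, whereas the paper's methods speak of BeadChips, DESeq2 and removal of genes with few reads in sum. Summary lines for reads off genes (58.0 to 62.7% of reads) were left out. Of 47643 genes, 47224 had a symbol in GENCODE M21 (GRCm38, the same assembly as mm10). Genes that summed to 100 counts or more were tested in edgeR 4.0.16 (R 4.3.3; TMM factors 0.832 to 1.08, robust quasi-likelihood test, two-sided, Benjamini-Hochberg over 14105 genes, threshold 0.05, common biological coefficient of variation 0.825). Standard errors are the log2 fold change over the root of F, and 95% intervals are normal. Log2 CPM used a prior count of 2. At 3 counts, a count of 0 allows 0.291 to 0.436 CPM. The code was tested on simulated counts.

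The genes and lists were chosen with earlier results of these data known. From each list, genes past the adjustment and the largest rise and fall are named, and for each tested homeobox gene the 3 genes most like it. Alternatives were DESeq2 1.42.0, limma-voom 3.58.1, RLE and upper quartile scaling, other filters, 4504h and 4504s summed, each library left out and, chosen after seeing the data, the libraries with Xist reads and the rule of the methods section. Figures used matplotlib. The replicates are libraries, of separate mice except for 4504h and 4504s of 1 mouse number, which the reported fit counts as 2, and p values measure the spread between libraries. Some alleles and single genes are not reported here.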

Additional observations from a re-analysis of the deposited data

Results flagged for a closer look

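In KPF library 4269, Meis3 had a log2 CPM of -2.18, where the nearest of the other 5 KPF libraries had 1.91, a gap that made up more of the group's range than Dixon's critical value for 6 samples. The value stands for 0 reads among 9571323. The log2 difference Meis1 minus Meis3 was 5.34 in the same library, with the nearest KPF library at 1.92, and rests on the same 0 reads. Of 13 sets of KPF values examined, 2 were marked in this way, and chance marks about 1 in 20.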

How the results depend on the processing

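The number of homeobox genes called higher, 1 in the reported fit, was 2 with DESeq2 and by the rule of the methods section, and 0 with upper quartile scaling, without a filter, with 4504h and 4504s summed and in the libraries with Xist reads. It was 0 to 1 with each library left out, and 0 were called lower in any fit. Prrx1 kept its direction, with log2 fold changes of 3.60 (upper quartile, adjusted p = 0.0518), 3.60 (no filter, 0.120), 3.85 (summed), 3.11 (Xist) and 3.20 to 4.07 with a library left out. Pbx3 had 1.30 with DESeq2 and 0.72 to 1.51 with a library left out. Signs turned for Prrx2 (-0.38 with Xist, -0.34 to 0.47 leaving libraries out, with -0.019 without 4515, -0.013 without 4601 and -0.34 without 4891), Msx1 (-3.04 to 2.20), Meis1 (-0.31 with Xist, -0.031 to 0.46) and Meis2 (0.010 with Xist, -0.93 to 0.28). The cause was not tested. The differences between paired homeobox genes kept their sign in 12 of 12 alternatives each. The size of Meis1 minus Meis2 ran from 0.043 to 1.66 and of Meis2 minus Meis3 from 0.30 to 1.85, and staying above the adjusted threshold says nothing, since few relabelings can pass it. Genes higher, 43, numbered 269 (DESeq2), 88 (no filter), 25 (summed), 6 (Xist) and 6 to 75 leaving libraries out. Genes lower, 112, numbered 928 (DESeq2), 44 (voom), 219 (no filter), 31 (Xist) and 13 to 198. Yap1 had -4.56 with voom (adjusted p = 0.0771) and -5.78 to -4.31 leaving libraries out. Calls were re-run for 5 lists, the other TALE, other mesenchymal, pancreatic, BMP and Hox genes, and not for the cell type markers. They were 0 in each alternative except for other mesenchymal homeobox genes (2 with DESeq2, 1 with no filter), pancreatic homeobox genes (1 with DESeq2, 1 with voom, 0 to 3 leaving libraries out), BMP genes (2 with DESeq2, 0 to 1) and Hox genes (2 with DESeq2). Without a filter the median of all genes was -0.31. At 3 counts, depth leaves Msx2 and Shox2 without a comparison.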

Other observations

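Transcripts with predicted names inside the Prrx1 gene were counted in the libraries with the most Prrx1, as noticed after the values were seen. Gm26523, a long noncoding RNA on the strand of Prrx1, had 63 and 16 reads in KPYYF libraries 4891 and 4938 and at most 3 in any other library. Gm37644, on the same strand, had 24 and 28 reads there and at most 3 elsewhere. Gm20471, on the opposite strand, had 0 reads. Gm16141, opposite to Meis1, had 104 reads, of which 64 lay in KPYYF library 4449, where Meis1 had 119 reads.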
